A study of Triticum aestivum with 96 samples.

Results

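The 24 libraries described here were made from wheat flag leaves collected around subjective dawn, that is, around the hours at which the lights would have come on had the earlier light and dark cycle continued. They are 12 libraries from mature leaves and 12 from senescent leaves, out of 96 libraries in the whole series, picked by their stage and time labels. The time window itself was chosen with earlier results of these data known. The times are ZT47, ZT49, ZT51, ZT71, ZT73 and ZT75, where ZT counts hours from the last real dawn, so they cover 23, 1 and 3 h of time of day on consecutive subjective days. Each stage and time point has 2 libraries, and each library holds RNA pooled from whole flag leaves of the primary tiller of 2 plants.

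All plants were bread wheat of the Australian cultivar Mace (Triticum aestivum, a hexaploid with the subgenomes A, B and D), with no other genotype or chemical treatment named in the labels. Both stages shared a growth room with 12 h of light at 20 °C and 12 h of dark at 15 °C, and were moved at ZT0 to constant light at 20 °C. The ears of mature plants were emerging, while the flag leaves of senescent plants had visibly lost chlorophyll. The stages came from sowings 28 days apart, so stage and sowing batch cannot be told apart in any result given here. The other 72 libraries, with 24 each around subjective midday (5 to 9 h), dusk (11 to 15 h) and night (17 to 21 h), served for comparison.

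The circadian clock is a set of interlocked transcriptional feedback loops that lets a plant anticipate dawn and dusk and that keeps running in constant light. Dawn is the time at which morning-phased clock repressors are abundant and at which much of the photosynthetic programme starts to rise. Leaf senescence is a regulated process in which chloroplasts are dismantled and nitrogen and minerals are exported, in wheat from the flag leaf to the grain. The title of the series names EARLY FLOWERING 3, a member of the evening complex of the clock, and the comparison at dawn asks which transcripts set the stages apart at this time of day. Genes are given by identifier, with the chromosome as the identifier states it, since the files do not pair identifiers with names. Of these identifiers, 0 occurred in the available reference table, so no roles are given, the tissue could not be checked against marker genes, and no sequences are shown.

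The 24 dawn libraries held an estimated 5315521 to 9266737 reads each, with means of 7106996 ± 1281267 when mature and 6819534 ± 766683 when senescent (SD, n = 12 each). The values analysed are scaled counts, meaning the reads of a gene times a factor that differs between libraries. Replicates of a time point correlated at 0.932 to 0.962 across genes at dawn. The sum of scaled counts was lower in senescent leaves, 6547399 ± 503984 against 8012657 ± 401686 in mature leaves (SD, n = 12 each, two-sided exact permutation of stage within time points, p 4.29e-05, the smallest this design can give). The 10 most abundant genes took 5.71% ± 0.488 of the scaled counts when mature and 4.18% ± 0.671 when senescent (SD, n = 12 each, exact permutation p 0.000129). Estimated reads and the number of genes with a scaled count of at least 10 did not pass that test (p 0.49 and 0.313). After adjustment over these 4 measures, the p-values were 0.000172 for the total, 0.000258 for the share of the 10 genes, 0.49 for reads and 0.417 for detected genes. Both stages had pools of separate leaves as replicates, so p-values rest on the spread between such pools. In the limma fits to the 24 dawn libraries, that spread also includes changes of the stage difference between time points beyond the fitted terms. The contrasts of dawn against the other times were fitted to 96 libraries, with a mean for each stage and time point. Their standard errors and p-values therefore leave out changes of the stage difference between time points or between dawns.

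At dawn, senescent and mature leaves differed in 19711 of 42428 tested genes (limma adjusted p under 0.05), or 46.5% of them. In senescent leaves 9746 genes (23%) were higher, with a median difference of 0.60 on the log2 scale, and 9965 genes (23.5%) were lower, with a median of -0.62. A difference of at least 1 log2 was found for 2335 of the higher and 2500 of the lower genes. For 1193 genes (2.81%) all 12 senescent libraries lay above all 12 mature ones, and for 1057 genes (2.49%) they lay below. The sign was the same at all 6 dawn time points for 13615 of the called genes. Without replicate 1 the counts of higher and lower genes were 4994 and 5573, and without replicate 2 they were 5662 and 5693.

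These counts rest on the scale of the deposited values, on which the median difference of all tested genes at dawn was -0.00076 log2. With every library scaled to the same total, that median rose to 0.28 log2, and 19342 genes passed in the higher direction against 5021 in the lower. The share of higher genes among those called was then 79.4% instead of 49.4%. On that scale the differences over the other times were shifted up as well, by a median of 0.23 log2, so directions below are relative to the deposited scale. In whole leaves, fewer cells of a type and less RNA per cell cannot be told apart.

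Among the genes with the smallest p at dawn, TraesMAC5B03G02909670 on chromosome 5B ranged from 284 scaled counts over a median of 518 to 827 in mature leaves. In senescent leaves its lowest, median and highest values were 2702, 3756 and 4808. The groups did not overlap, and the difference was 2.87 ± 0.097 log2 (SE, n = 12 each, limma adjusted p 2.65e-16). TraesMAC4D03G02493490 on chromosome 4D ranged from 12.3 to 32.5 in mature leaves (median 20.03) and from 223 to 414 in senescent leaves (median 292). Its groups were likewise apart, by 3.66 ± 0.13 log2 (SE, adjusted p 8.82e-16).

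Among genes lower in senescent leaves, TraesMAC4B03G02261090 on chromosome 4B had the smallest p. It ranged from 270.03 to 2817 scaled counts in mature leaves (median 615) and from 0 to 5.67 in senescent leaves (median 2.81). TraesMAC4D03G02440560 on chromosome 4D ranged from 173 to 1722 in mature leaves (median 398) and from 0 to 5.78 in senescent leaves (median 0.959). In both genes every mature library lay far above every senescent one, and the adjusted p-values in limma were 8.26e-17 and 8.82e-16. The size of these differences depends on the pseudocount, because the senescent values lie near 0. The mature mean of TraesMAC4B03G02261090 was 2106 scaled counts at ZT49 and 366 at ZT73. That of TraesMAC4D03G02440560 was 1458 at ZT49 and 199 at ZT73. The change of the stage difference between the dawns did not pass its test for either gene (adjusted p 0.0809 and 0.084).

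These 4 leading genes were also different at the other times of day. TraesMAC5B03G02909670 differed by 2.90 log2 and TraesMAC4D03G02493490 by 3.51 log2 over midday, dusk and night. For both, the direct test of dawn against the other times did not pass (limma adjusted p 0.956 and 0.851), and neither did it for TraesMAC4B03G02261090 (adjusted p 0.079). It passed for TraesMAC4D03G02440560, whose difference was -7.21 log2 at dawn and -5.76 over the other times (adjusted p 0.00606).

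**Figure D1:**
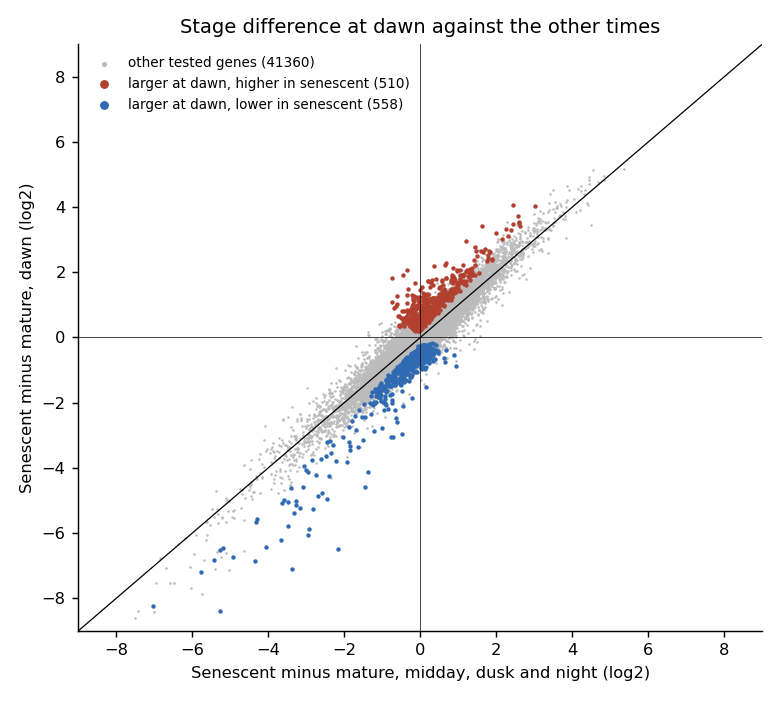
Each point is a tested gene, with its senescent minus mature difference averaged over midday, dusk and night on the x axis and its difference at dawn on the y axis, both in log2 of scaled count + 2. The diagonal marks equal differences. Coloured genes (510 higher and 558 lower) were called at dawn and passed the direct test in the direction of their dawn difference. Larger at dawn is meant in that direction, so an opposite difference at another time can be greater in size.

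For 18571 of the 19711 genes called at dawn, the direct test did not set the difference at dawn apart from that at the other times. The fitted differences at dawn and over the other times correlated at 0.938 across the 42428 genes, which are not independent replicates. Of the 19711 genes called at dawn, 17823 were also called over the other times with the same sign, in a test over the other times that called 27938 genes (65.8%). A further 1748 were not called over the other times, but the difference itself passed the direct test for only 339 of those. Conversely, 9975 genes were called over the other 72 libraries and not at dawn, where 24 libraries were tested, and the difference itself passed for 323 of them.

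The direct test, the stage difference at dawn minus its mean over midday, dusk and night, called 1470 of 42428 genes (3.46%) in limma. At dawn, senescent minus mature was higher than at the other times for 676 genes (1.59%) and lower for 794 (1.87%). Against single times, the dawn difference was set apart from that at dusk for 2693 genes (6.35%), from night for 850 (2%) and from midday for 614 (1.45%). In these tests senescent minus mature was higher at dawn for 1151 genes (2.71%) against dusk, 398 (0.938%) against night and 313 (0.738%) against midday. It was lower at dawn for 1542 (3.63%), 452 (1.07%) and 301 (0.709%). With equal totals the counts of 676 and 794 became 907 and 491. A fit added after seeing the data had 1 stage difference for each of dawn, midday, dusk and night. There, changes between time points enter the error, and the counts were 569 and 606. Leaving out ZT51 lowered the counts of higher and lower genes to 374 and 349, and leaving out ZT49 lowered that of lower genes to 499. They were 52 and 11 without replicate 1, 82 and 49 without replicate 2 and 321 and 316 in the second cycle alone.

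Of these genes, 1068 (2.52% of those tested) were called at dawn and had their difference extended in the dawn direction. They comprise 510 genes that were higher in senescent leaves at dawn and 558 that were lower. Larger at dawn is meant in that direction throughout, so an opposite difference at another time can be greater in size. TraesMAC5A03G02772020 is such a gene, with 1.02 log2 at dawn and -1.35 at dusk. The 510 higher genes had a median difference of 0.88 log2 at dawn (quartiles 0.59 and 1.305), 0.34 at midday, -0.06 at dusk and 0.28 at night. The 558 lower genes had a median of -0.80 log2 at dawn (quartiles -1.32 and -0.52), -0.42 at midday, -0.07 at dusk and -0.33 at night. The values at dawn and their contrast to other times chose these genes, so the medians describe them and test nothing.

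The differences of both groups followed a daily course that had its extreme within the dawn window at each of the sampled days. In the 510 higher genes the median difference was 0.48 log2 at ZT45, 0.94 at ZT47, 0.97 at ZT49 and 1.24 at ZT51, and 0.58 at ZT53. On the next day it was 0.58 at ZT71, 0.86 at ZT73, 0.81 at ZT75 and 0.51 at ZT77. In the 558 lower genes it reached -1.08 at ZT51 and -0.92 at ZT75, and it lay between -0.07 and 0.0087 at ZT63, ZT83 and ZT85. By time of day, with the days averaged, the median of these lower genes was -0.40 log2 at 21 h and -0.61 at 23 h. It was -0.85 at 1 h, -0.97 at 3 h and -0.67 at 5 h. So their difference was larger in size at 5 h, a midday time, than at 23 h, a dawn time. Over the 24 time points the median of all tested genes stayed between -0.02 and 0.02 log2.

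**Figure D2:**
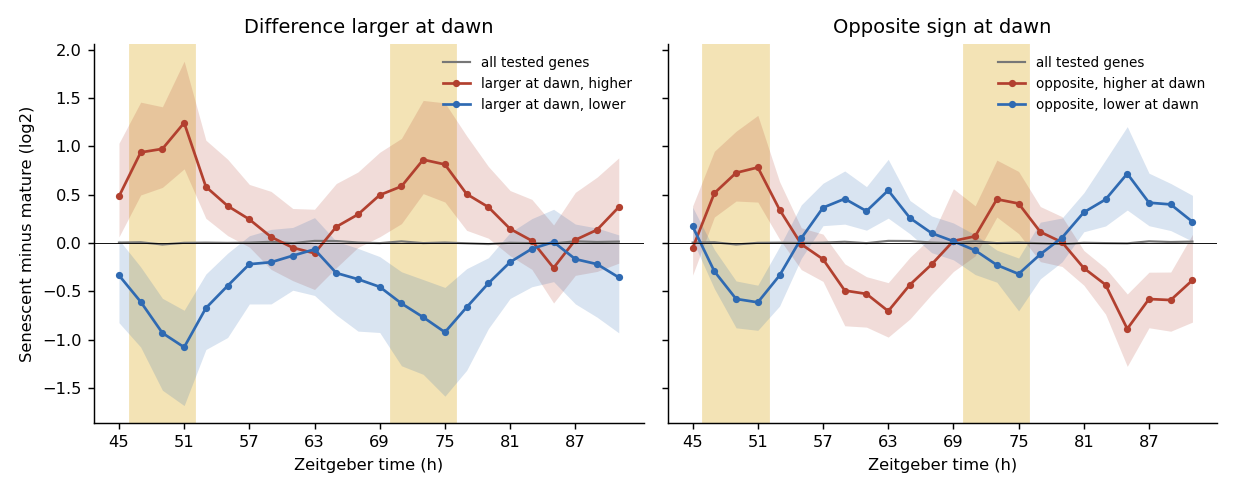
The median senescent minus mature difference (log2) is drawn against Zeitgeber time, with the quartiles as a band, for genes whose difference was larger at dawn (left) and genes with the opposite sign at dawn (right). Shaded bands mark the dawn window, where the medians of the groups on the left reached 1.24 and -1.08 log2 at ZT51, while the grey line of all tested genes stayed near 0.

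The mature and senescent courses of these genes were out of step, which their choice by the dawn contrast in these same libraries in part builds in. The shares and levels here describe the genes and test nothing. Among the 510 higher genes, 288 had their lowest window mean at dawn in mature leaves (56.5%, against 23.6% of all tested genes) and 206 at night (40.4%, against 29.03%). In senescent leaves 4.90% had it at dawn (against 19.4% of all tested genes) and 68.8% at night (against 31.1%). Relative to its stage's own mean over the windows, the median dawn level lay at -0.38 log2 in mature leaves. In senescent leaves it lay at 0.12 log2, above the daily mean.

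The 558 lower genes, chosen in the same way, showed the reverse arrangement, which is likewise a description. In mature leaves 370 of them (66.3%, against 21.8% of all tested genes) had their highest window mean at dawn. In senescent leaves 75 did (13.4%, against 17.5% of all tested genes), and 319 had it at night (57.2%, against 30.2%). Their median dawn level was 0.43 log2 above the daily mean in mature leaves. It was 0.02 log2 above that mean when leaves were senescent.

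Fitted peak times, from a 24 h cosine and sine with a linear term in each stage, were read for genes rhythmic in both stages. Of the 510 higher genes 427 were, and the median shift of their peak (senescent minus mature) was -2.87 h, with 93.4% earlier. In mature leaves 37.2% of them peaked from 8 to 10 h and 27.9% from 10 to 12 h, and in senescent leaves 35.1% from 6 to 8 h and 28.8% from 4 to 6 h. Of the 558 lower genes 420 were rhythmic in both stages, with a median shift of -1.92 h and 83.1% earlier. Mature peaks lay from 20 to 22 h for 30.7% and from 22 to 24 h for 32.9% of these, and senescent peaks from 18 to 20 h for 28.3%. Over all 17168 genes rhythmic in both stages the median shift (senescent minus mature) was -0.817 h, with 68.7% earlier. The peak times come from the same libraries that chose the genes, among others, and are given as a description.

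**Figure D3:**
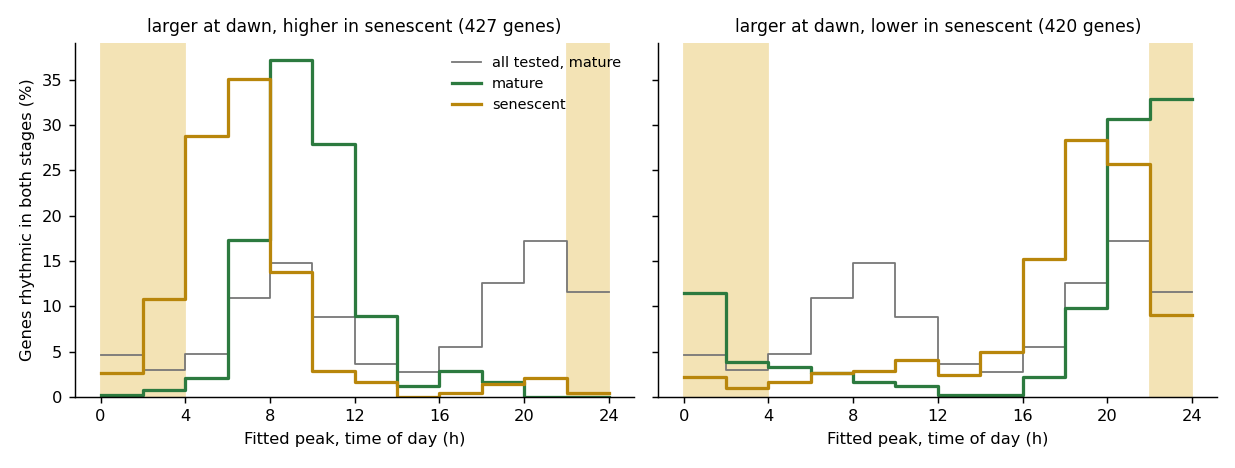
The share of genes (%) is drawn by fitted peak time (h of time of day, 2 h bins) in mature and senescent leaves, for the 427 higher and 420 lower genes whose difference was larger at dawn and that were rhythmic in both stages. The grey line gives all tested genes rhythmic in both stages, in mature leaves, and shading marks dawn; the senescent curves sit to the left of the mature ones.

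The 2 higher genes with the smallest p in the direct test had low mature values at dawn and also at night. Mature means at dawn and night were 216 and 248 for TraesMAC5A03G02772020, and 144 and 159 for TraesMAC4D03G02447570. Senescent means were higher at dawn than at night, 386 and 123 for the former and 305 and 161 for the latter. TraesMAC5A03G02772020 on chromosome 5A ranged from 56.9 over a median of 178 to 439 scaled counts in mature leaves and from 159 over 359 to 688 in senescent leaves. The ranges overlapped, but within time points the stages stood apart, with senescent leaves higher at 5 and lower at 1 of the 6. At ZT47 it had 56.9 and 78.6 in the mature libraries and 169 and 159 in the senescent ones. At ZT51 it had 146 in each mature library, and 688 and 679 in the senescent ones. At ZT71 the order was not the same, with 424 and 439 in mature and 423 and 257 in senescent leaves. Over dawn its difference was 1.02 ± 0.20 log2, against 0.29 at midday, -1.35 at dusk and -0.80 at night, and dawn minus the other times was 1.64 ± 0.11 log2 (SE, limma adjusted p 4.18e-16). That stage difference was 1.85 log2 at the first dawn and 0.19 at the second, and the change between dawns passed its own test (adjusted p 0.00113).

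TraesMAC4D03G02447570 on chromosome 4D ranged from 76.7 over a median of 125 to 291 scaled counts in mature leaves at dawn. In senescent leaves it ranged from 215 over 305 to 404. Both senescent libraries lay above both mature ones at all 6 dawn time points, although the ranges over the whole window overlapped. Its difference was 1.15 log2 at dawn, 0.26 at midday, -0.46 at dusk and 0.05 at night, and dawn minus the other times was 1.202 ± 0.085 log2 (SE, adjusted p 4.34e-16).

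The 2 lower genes of that ranking had their highest mature mean at dawn, and their senescent means lay below the mature ones at all times of day. TraesMAC5D03G03125760 on chromosome 5D ranged from 73.5 over a median of 224 to 507 scaled counts at dawn in mature leaves and from 14.4 over 27.3 to 51.2 in senescent leaves, with no overlap. It averaged 272 ± 175 scaled counts at dawn in mature leaves, against 101 ± 29.1 at midday, 71.02 ± 15.5 at dusk and 118 ± 114 at night (SD, n = 12 each). In senescent leaves it averaged 29.7 ± 11.3 at dawn and between 36.5 and 39.4 at the other times. At night its highest library had 439 in mature and 141 in senescent leaves. Its difference was -2.86 ± 0.22 log2 at dawn, -1.34 at midday, -0.92 at dusk and -1.40 at night, and dawn minus the other times was -1.64 ± 0.18 log2 (SE, adjusted p 3.53e-09). The mature values were 276 to 507 at the first dawn and 73.5 to 172 at the second, and the stage difference changed between the dawns (adjusted p 0.0141).

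TraesMAC7D03G04279780 on chromosome 7D was listed at 0 in 11 of the 12 senescent dawn libraries and at 1.13 in the other. In mature leaves it ranged from 12.7 over a median of 254 to 844 there, with no overlap, and averaged 364 ± 318 scaled counts at dawn, 7.79 ± 12.8 at midday, 11.7 ± 27.6 at dusk and 156 ± 358 at night (SD, n = 12 each). Its mature replicates were far apart, with 805 and 54.6 at ZT49 and 844 and 12.7 at ZT51. The mature mean at ZT73 was 35.6, and the highest mature library, with 1266, was at night. The direct test passed with an adjusted p of 8.11e-08, and without replicate 1 it did not (adjusted p 0.134). The size of its difference depends on the pseudocount, since the senescent values lie at or near 0.

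**Figure D4:**
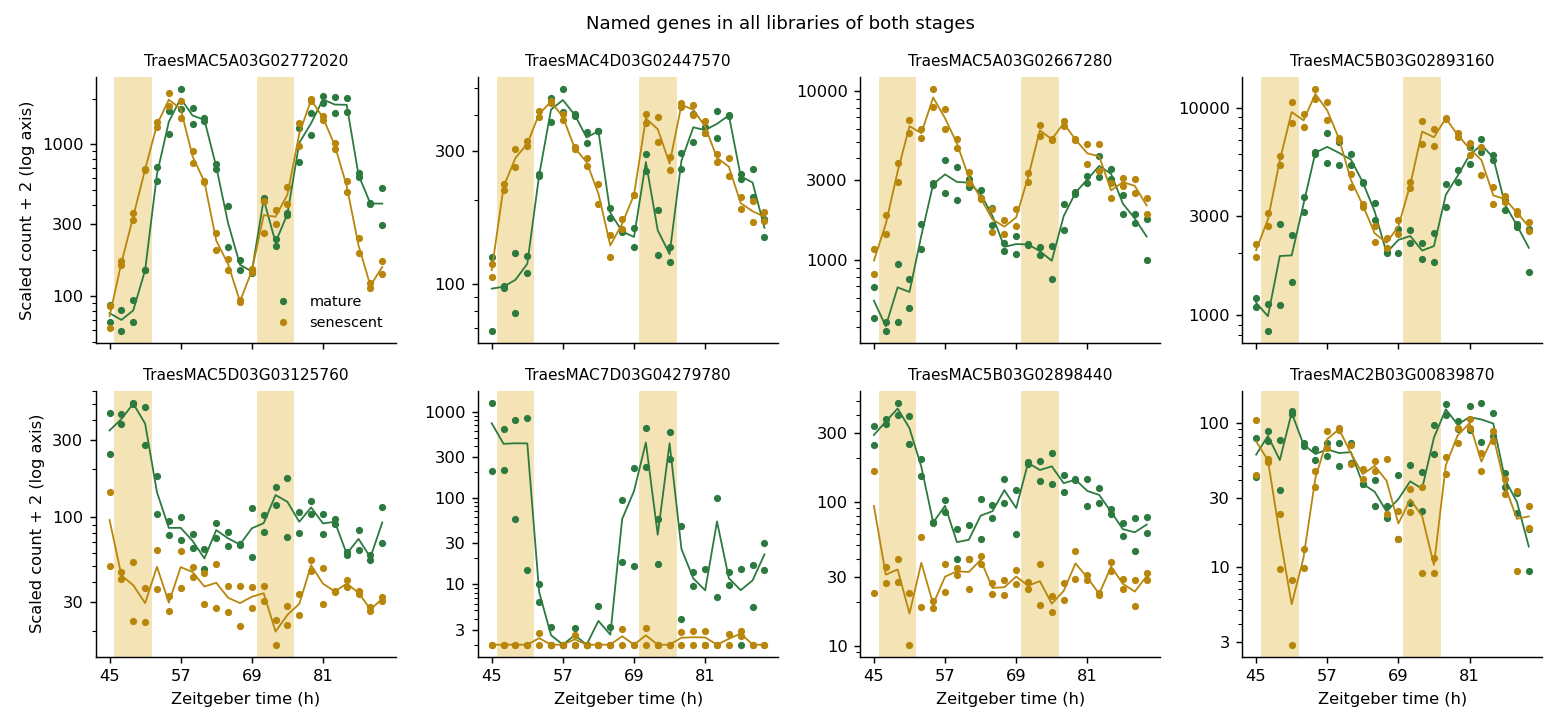
Scaled counts + 2 (log axis) of 8 genes are drawn against Zeitgeber time for all libraries, with points for single libraries and lines through the means of mature and senescent leaves. In the upper row senescent values run above mature ones in the shaded dawn windows (except TraesMAC5A03G02772020 at ZT71), and in the lower row they mostly run below.

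A narrower group had a dawn difference that exceeded, in its own direction, the difference at midday, at dusk and at night in 3 separate tests. It holds 79 of 42428 genes (0.186%), of which 56 were higher (0.132%) and 23 lower (0.0542%) in senescent leaves at dawn. For 68 of them the sign was the same at all 6 dawn time points, as it was for 13615 of the 19711 genes called at dawn. For 25, of which 17 were higher and 8 lower, the 12 senescent and 12 mature libraries did not overlap. Among all tested genes 2.81% lay apart as higher and 2.49% as lower. The count was 32 without ZT51, 134 without ZT71, 43 and 21 in the first and second cycle alone, and 131 without mature ZT49 replicate 2. In limma fits to a single replicate number, 0 genes passed all 4 tests, and 257 without replicate 1 and 318 without replicate 2 did so at unadjusted p under 0.05.

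The 56 higher genes differed at dawn by 0.28 to 3.52 log2, with a median of 1.25. At dusk 38 of them had a difference below 0, at night 13 and at midday 12. Over the other times combined, 27 were also called higher, 13 were not called and 16 were called lower. In mature leaves 37 of the 56 had their highest window mean at midday, 17 at dusk and 0 at dawn (66.1%, 30.4% and 0%, against 28.6%, 21.9% and 21.8% of all tested genes). In senescent leaves 47 had it at midday, 9 at dawn and 0 at dusk (83.9%, 16.1% and 0%, against 34.4%, 17.5% and 17.97%). Over all 56 genes the fitted peak had a median of 9.80 h when leaves were mature and of 5.94 h when they were senescent.

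The 23 lower genes differed at dawn by -6.86 to -0.30 log2, with a median of -1.40. Over the other times 15 were also called lower, 4 were not called and 4 were called higher. In mature leaves 18 of the 23 were highest at dawn (78.3%, against 21.8% of all tested genes), and in senescent leaves 2 were (8.70%, against 17.5%). A 24 h rhythm passed its test for 22 of the 23 in mature leaves (95.7%, against 49.2% of all tested genes) and for 16 in senescent leaves (69.6%, against 63.5%). Their median fitted peak-to-trough difference was 1.51 log2 in mature leaves and 0.71 log2 when senescent. In the 56 higher genes it was 1.79 and 1.74 log2, and over all tested genes 0.43 and 0.44 log2. Both sets were chosen by their dawn contrasts in these same libraries, so their window shares and fitted courses are a description.

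The gene just inside the limits of this group was TraesMAC2D03G01261040, whose largest of the 4 adjusted p-values was 0.0492. The gene just outside was TraesMAC3B03G01711200, with 0.0525. These were picked for their closeness to the threshold.

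TraesMAC5A03G02667280 on chromosome 5A led the higher genes of this group not yet named. In mature leaves it had a lowest, median and highest value of 379, 862 and 1253 scaled counts at dawn, and in senescent leaves 1428, 4453 and 6736. The groups did not overlap, and the difference was 2.29 ± 0.16 log2 at dawn, 1.37 at midday, 0.18 at dusk and 0.49 at night. Dawn minus the other times was 1.61 ± 0.13 log2 (SE, limma adjusted p 2.47e-14).

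TraesMAC5B03G02893160 on chromosome 5B was among the more abundant genes, with 837 to 2738 scaled counts in mature leaves at dawn (median 2046). In senescent leaves it ranged from 2691 to 10580 (median 6164). The ranges touched only between the highest mature and the lowest senescent library, and at each of the 6 time points both senescent libraries lay above both mature ones. Its difference was 1.67 log2 at dawn, 0.81 at midday, -0.21 at dusk and 0.24 at night. Dawn minus the other times was 1.39 ± 0.11 log2 (SE, adjusted p 5.40e-14).

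TraesMAC5B03G02898440 on chromosome 5B was lower in senescent leaves, with 132 to 484 scaled counts in mature (median 233) and 8.18 to 37.95 in senescent leaves at dawn (median 24.02). Its groups did not overlap, and its difference was -3.37 log2 at dawn, -2.06 at midday, -1.19 at dusk and -1.71 at night. The stage difference was -3.88 log2 at the first dawn and -2.86 at the second, a change that passed its limma test (adjusted p 0.041). Dawn minus the other times was -1.72 ± 0.22 log2 (SE, adjusted p 9.57e-08). TraesMAC2B03G00839870 on chromosome 2B differed by -1.85 ± 0.37 log2 at dawn and by -0.77 at midday, -0.10 at dusk and 0.19 at night (SE, adjusted p of dawn against the other times 3.91e-06). Its libraries overlapped, with 22.3 to 118 in mature (median 66.1) and 0.889 to 54.1 in senescent leaves (median 15.5). Both senescent libraries lay below both mature ones at 4 of the 6 time points. Its direct test did not pass without replicate 1, without replicate 2 or in the second cycle alone (adjusted p 0.130, 0.191 and 0.130).

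For 140 genes (0.33%) the stage difference at dawn and that over the other times were both called, with opposite signs. Senescent leaves were higher at dawn and lower otherwise for 81 of these (0.191%), and lower at dawn and higher otherwise for 59 (0.139%). In the 81 genes the median difference was 0.50 log2 at dawn, -0.02 at midday, -0.62 at dusk and -0.19 at night. In the 59 genes it was -0.39 at dawn, 0.09 at midday, 0.49 at dusk and 0.21 at night. So in both groups the opposite sign was largest at dusk. The count of 140 fell to 73 without ZT51, to 88 without ZT49, to 21 and 26 without replicates 1 and 2 and to 54 in the second cycle alone.

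TraesMAC7A03G03886310 on chromosome 7A had the widest swing among the 4 genes named for this pattern. At dawn it ranged from 5.90 over a median of 49.5 to 134 scaled counts in mature and from 61.7 over 152 to 374 in senescent leaves. At dusk the order was the opposite, with means of 823 ± 213 (mature) and 507 ± 255 (senescent; SD, n = 12 each). Its difference was 1.93 log2 at dawn, 0.68 at midday, -0.82 at dusk and -1.24 at night, and dawn minus the other times was 2.39 ± 0.22 log2 (SE, limma adjusted p 6.53e-12).

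TraesMAC4B03G02269330 on chromosome 4B ranged from 55.7 over a median of 94.1 to 195 scaled counts in mature and from 146 over 201 to 253 in senescent leaves at dawn. Its mean was 107 ± 45.1 (mature) and 205 ± 38.5 (senescent) at dawn, and 299 ± 89.8 and 181 ± 51.0 at dusk (SD, n = 12 each). Both senescent libraries lay above both mature ones at all 6 dawn time points. Its difference was 1.01 log2 at dawn, 0.19 at midday, -0.70 at dusk and -0.07 at night. Dawn minus the other times was 1.21 ± 0.099 log2 (SE, adjusted p 1.56e-13).

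The 2 genes named for a lower level at dawn and a higher one otherwise were less clear. TraesMAC3A03G01485110 on chromosome 3A ranged from 2.71 over a median of 22.9 to 48.3 scaled counts in mature and from 0.957 over 11.005 to 26.5 in senescent leaves at dawn. It averaged 23.7 ± 14.6 in mature and 11.7 ± 7.31 in senescent leaves at dawn, and 11.3 ± 8.74 and 29.7 ± 14.4 at dusk (SD, n = 12 each, adjusted p of dawn against the other times 7.68e-06). Its libraries overlapped within 3 of the 6 dawn time points. Its difference was -0.86 log2 at dawn, 0.56 at midday, 1.48 at dusk and 0.79 at night. TraesMAC6B03G03565140 on chromosome 6B ranged from 23.03 over a median of 45.95 to 222 in mature and from 7.15 over 33.9 to 179.7 in senescent leaves at dawn, with both senescent libraries below both mature ones at 5 of the 6 time points. It averaged 79.5 ± 69.4 and 60.8 ± 60.5 at dawn and 59.6 ± 57.8 and 134 ± 92.3 at dusk (adjusted p 7.24e-05). It declined through dawn in both stages, from 222 and 199 at ZT47 to 31.4 and 29.2 at ZT51 in mature and from 180 and 161 to 15.3 and 13.3 in senescent leaves. Its difference was -0.63 log2 at dawn, 0.25 at midday, 1.48 at dusk and 0.16 at night. Without replicate 1 neither gene passed the direct test (adjusted p 0.181 and 0.127), without replicate 2 the gene on 6B did not (adjusted p 0.232), and in the second cycle alone the gene on 3A did not (adjusted p 0.151).

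When each of the other windows was set against the remaining ones in the same way, the direct test called 1412 genes for midday, 1524 for dusk and 1068 for night, beside 1470 for dawn. Genes whose difference exceeded that at each other time numbered 49 for midday, 104 for dusk and 26 for night, beside 79 for dawn. Genes with the opposite sign numbered 179 for midday, 246 for dusk and 84 for night, beside 140 for dawn. The number of genes called for stage itself was 19404 to 19986 in all 4 windows. At dawn and night the narrower group held more higher than lower genes, 56 against 23 at dawn, and at midday and dusk it held fewer. These counts come from overlapping sets of libraries, and their differences were not tested.

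**Figure D5:**
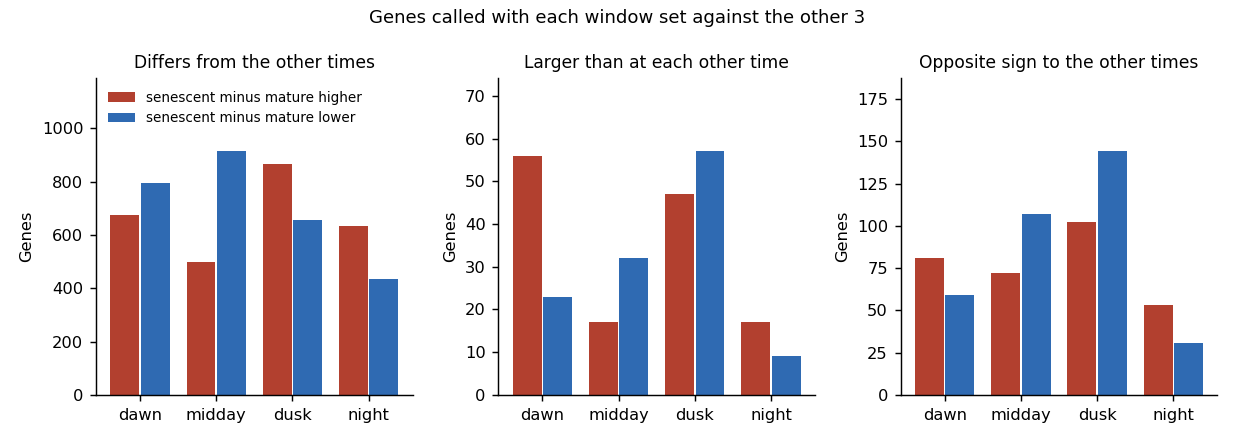
Bars give the number of genes (from 0) whose stage difference in a window differed from the mean of the other windows (left), exceeded that of each other window (middle) or had the opposite sign (right), split by whether senescent minus mature was higher or lower in that window. At dawn the middle panel holds 56 higher and 23 lower genes.

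Each sampled dawn was also compared with the other. The stage difference changed between ZT47 to ZT51 and ZT71 to ZT75 for 2660 genes (6.27%) in limma, with 1087 higher (2.56%) and 1573 lower (3.71%) at the second dawn. In the 1573 genes the median level rose by 0.44 log2 in mature leaves and fell by 0.54 log2 in senescent leaves from the first to the second dawn. Their median stage difference went from 0.01 to -1.0 log2. In the 1087 genes the median level fell by 0.57 log2 in mature leaves and rose by 0.28 log2 in senescent leaves, and the stage difference went from -0.41 to 0.44 log2. Of the 1532 genes that were also called at dawn, 1216 had the larger difference at the second dawn and 316 at the first. The change between the dawns in these same libraries chose the genes, so these medians and counts describe them and test nothing. Over all tested genes the median level changed by -0.0091 log2 in mature leaves and by -0.0013 log2 in senescent leaves.

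The count of 2660 genes moved with single time points. It was 152 without ZT47, 510 without ZT75, 1179 without ZT71, 1272 without ZT49 and 4473 without ZT51, and 0 and 43 without replicates 1 and 2 (3878 and 5840 at unadjusted p under 0.05 in limma). Single libraries moved it too, to 1604 without mature ZT47 replicate 1, 1620 without senescent ZT47 replicate 2 and 1708 without senescent ZT75 replicate 1. At ZT47 the totals of scaled counts of the stages were close, with a log2 ratio of senescent to mature of -0.08, and at ZT75 they were furthest apart, at -0.44. With every library scaled to the same total, the count was 2738. The part of the totals in the change of single genes was not tested.

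Genes chosen in a single cycle were then followed in the other. From ZT45 to ZT67 alone, 868 genes were called at dawn with a larger difference there than at the other times. In the libraries from ZT69 to ZT91, 72.6% of these had the same sign at dawn, which was the share among all tested genes too (72.7%). They were called at dawn with that sign in 39.4% of cases, against 33.4% of all tested genes. Dawn against the other times was called with the same sign for 10.8% of the 868, against 0.983% of all tested genes. Chosen in the later cycle, 555 genes gave 89.4% with the same sign at dawn in the earlier one, against 72.7% of all tested genes. In the direct test 14.8% of them were called with the same sign, against 1.95% of all tested genes. The lists share 81 genes with the same sign, 9.33% of the former and 14.6% of the latter.

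The narrower group held 43 genes in the earlier and 21 in the later cycle, with 3 shared. Of the 43, 27.9% were called in the direct test with the same sign in the later cycle, and of the 21, 38.1% in the earlier one (0.983% and 1.95% of all tested genes). The opposite-sign group held 153 and 54 genes with 4 shared. Of the 153, 34.6% had the same sign at dawn in the later cycle, and of the 54, 74.1% had it in the earlier one, against 72.7% of all tested genes. In the direct test 9.80% of the 153 and 24.1% of the 54 were called with the same sign in the other cycle.

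By position, the groups were spread over the genome. The 1068 genes with a larger difference at dawn lay on all 21 chromosomes, with 166, 163 and 181 of the higher and 179, 197 and 182 of the lower genes on the A, B and D subgenomes. The share of tested genes that were higher and larger at dawn ranged from 0.743% on chromosome 1A to 1.62% on 4B, and the share lower from 0.868% on 2A to 1.76% on 6A. The 56 higher genes of the narrower group lay on 18 chromosomes, 7 of them on a single one, and divided into 21, 18 and 17 on A, B and D. The 23 lower ones divided into 3, 9 and 11. How reads shared by homoeologous copies were assigned is not given in the sources used here, so values of a single copy are uncertain to that extent.

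Since only genes whose scaled counts averaged 10 or more were tested, rarer transcripts could not enter any group. Among the tested genes, those with a larger difference at dawn had a higher median level than all tested genes together. Their median mean scaled count was 97.8 for the higher and 147 for the lower genes, beside 55.5 over all tested genes. It was 68.9 for the higher and 82.6 for the lower of all genes called at dawn. The part of level in which genes passed was not tested. Relative gene length, read from the ratio of scaled count to FPKM and set to 1 for the median tested gene, had a median of 1.06 and 0.869. Among all genes called at dawn it was 1.19 for those higher and 0.785 for those lower in senescent leaves. The part of length in that stage difference was not tested.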

How the data were processed

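The deposited count table holds signal values, which, judged from the values, are read counts that the authors rescaled library by library before they deposited them. The submitters' processing notes name bcl2fastq (version 2.17), STAR, Cufflinks and Cuffnorm, and the genome build and settings are not given in the sources used here. In every library at least 99.97% of values below 200 reads lay within 0.1 of a whole multiple of 1 number (0.516 to 1.43), and estimated reads are the total divided by it. A few values are fractional, so count models planned as alternatives were not run. The deposited FPKM table (fragments scaled by the authors for gene length and library size) served as an alternative and for relative length. The senescent count file repeats columns of that table with 0 differing values, and the senescent files were not used.

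The test was limma 3.58.1 in R 4.3.3 with a variance trend, on log2(scaled count + 2), for 42428 of 139118 genes whose scaled counts averaged 10 or more over all 96 libraries, with Benjamini-Hochberg adjustment and a threshold of 0.05. The package data.table (version 1.17.8) read the files. Fold changes on this scale understate changes of low genes. The stage at dawn was fitted to 24 libraries with time point as covariate, and contrasts between windows to 96 libraries with a mean for each stage and time point. The fits were tested on simulated data. Genes were named by p, as the 2 in each direction per comparison with an absolute dawn difference of at least 1 log2 (0.5 for opposite signs) and the same sign in both replicate numbers and cycles. The time window, the lists and the tests were chosen with earlier results of these data known. Replicate numbers did not pair the stages. At the 6 dawn time points the replicate deviations of both stages correlated at -0.06 to 0.13 across genes.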

Additional observations from a re-analysis of the deposited data

Results flagged for a closer look

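The stage difference at dawn differed from that at the other times of day by a direct test for 676 genes in which senescent minus mature was higher at dawn and for 794 genes in which it was lower. It differed between the first and the second dawn for 2660 genes. Among the named genes, dawn minus the other times was 1.642 log2 for TraesMAC5A03G02772020, 1.202 for TraesMAC4D03G02447570, 1.613 for TraesMAC5A03G02667280, 1.391 for TraesMAC5B03G02893160, 1.205 for TraesMAC4B03G02269330 and 2.385 for TraesMAC7A03G03886310. It was -1.645 for TraesMAC5D03G03125760, -4.329 for TraesMAC7D03G04279780 (a value that depends on the pseudocount), -1.718 for TraesMAC5B03G02898440, -1.622 for TraesMAC2B03G00839870, -1.806 for TraesMAC3A03G01485110 and -1.26 for TraesMAC6B03G03565140. All of these passed the direct test in limma. Each group of the labels, a stage at a time point, holds 2 libraries, too few for a check of single outlying values.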

How the results depend on the processing

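Of 304 recomputed counts, 258 stayed within 1.5 times the reported count. Scaling to equal totals gave 19342 higher and 5021 lower genes at dawn and 491 with a lower dawn difference than at the other times. A mean of at least 50 left 6108 higher and 6547 lower genes, out of fewer tested genes. Requiring 1 log2 left 2335 and 2500 at dawn, 132 and 105 against the other times, and 1219 between the dawns. The first cycle alone gave 43 genes with a difference exceeding every other time. The second alone gave 21, with 321 and 316 against the other times and 54 of opposite sign. Without ZT47 the count between the dawns was 152. Without ZT49 it was 1272, with 499 lower against the other times and 88 opposite. Without ZT51 the counts were 374 and 349 against the other times, 32 exceeding every other time, 73 opposite and 4473 between the dawns. Without ZT71, 134 genes exceeded every other time and 1179 changed between the dawns, and without ZT75 510 changed. Fits without 1 library or 1 replicate number ranged from 4994 to 9767 (higher at dawn), 5573 to 10005 (lower), 52 to 839 and 11 to 893 (against the other times), 0 to 131 (exceeding), 21 to 161 (opposite) and 0 to 3248 (between the dawns). The lowest values come from a single replicate number, where 1 stage difference per window was fitted. With all libraries that fit, added after seeing the data, gave 569 and 606 genes against the other times, 52 exceeding and 130 opposite. The cause of these changes was not tested, and neither was the part of the smaller number of libraries or genes in a fit. The named genes kept their sign in all 687 refits, and in 8 they lost the call. They had been chosen by p and for the same dawn sign in both replicate numbers and cycles. Refits to the same libraries are therefore no independent check of them. The replicate block gave 9233 higher and 9402 lower genes at dawn, 621 and 691 against the other times, 72 exceeding, 113 opposite and 1945 between the dawns, each within 1.5 times of the reported count; same-numbered replicates did not deviate together. The edgeR and DESeq2 alternatives were not run. Low counts limit small differences.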
